A study of Mus musculus with 12 samples.

Results

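The 9 genes described here encode the proteins that carry the rod light signal from the light-activated photopigment to the plasma membrane: the transducin subunits Gnat1, Gnb1 and Gngt1, the phosphodiesterase subunits Pde6a, Pde6b and Pde6g, the cyclic nucleotide-gated channel subunits Cnga1 and Cngb1, and the exchanger Slc24a1. They were chosen by symbol from a table of 56748 genes, and all 9 passed the filter on low values in each comparison. The choice applied no threshold to their values, but earlier results of these data were known when it was made. The table covers 12 mouse libraries in 4 groups of 3: rod RNA and whole-retina RNA, each from Het and KO mice. Rod RNA was obtained by TRAP (translating ribosome affinity purification), in which an antibody to an HA tag on the ribosomal protein Rpl22 pulls down ribosomes with their mRNA, and whole-retina RNA is the lysate before the pull-down.

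All animals were littermates of 2 weeks of age and carried RiboTag, the Cre-dependent HA-tagged Rpl22 allele, and the i75-Rod-Cre transgene, in which a rod promoter drives Cre. Control mice were Shp2 fl/+ and are called Het, because Cre removes their single floxed allele in rods as well. The sample titles call the same mice wt. KO mice were Shp2 fl/fl. Shp2 is a tyrosine phosphatase encoded by Ptpn11. The knockout is confined by design to cells with Cre, so whole retina still contains Shp2 from other cells. The labels do not state whether replicates are single animals or pools, and p-values measure only the spread between these samples.

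Ptpn11, the targeted gene, was listed at 2511, 2439 and 2431 for Het rods, and KO rods had 1735, 2139 and 1971. All 3 KO values were below all 3 Het values, with a log2 difference of -0.26 (SE 0.09; limma adjusted p = 0.0576), which did not pass the test. The value covers the whole gene, including exons that Cre leaves in place. In retina the Ptpn11 values of the genotypes overlapped.

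Within a fraction the libraries had nearly equal totals (16263948 to 16265259 for rods, 14525527 to 14527992 for retina), which shows that the values had been scaled before deposit. The reads estimated to stand behind them numbered 11890000 to 25280000 in rods and 9980000 to 19230000 in the 5 retina libraries where an estimate could be made. In the 11 libraries with an estimate, the fewest reads behind a member were about 7704, and counting error was at most 1.14%. No estimate could be made for Het retina 3, which held the lowest member value, 7832 for Cngb1. The coefficient of variation of the members between replicates ran from 1.32% to 17.99% in Het rods, 3.0% to 11.65% in KO rods, 9.32% to 37.52% in Het retina and 2.76% to 28.46% in KO retina.

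In the dark, cyclic GMP holds the channel of the rod outer segment open. The light-activated photopigment loads transducin with GTP, the transducin alpha subunit relieves the inhibition of phosphodiesterase, cyclic GMP falls and the channel closes, while the exchanger goes on extruding calcium. Rods are the most numerous cells of the mouse retina, and cones use a parallel set of proteins encoded mostly by separate genes.

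Transducin is a heterotrimer of alpha, beta and gamma subunits. Gnat1 (ENSMUSG00000034837), the alpha subunit that binds GTP and activates phosphodiesterase, was listed at 355492, 391221 and 397944 in Het rods, 395905, 419467 and 402222 in KO rods, 124796, 134206 and 101027 in Het retina, and 125812, 121108 and 119289 in KO retina. Every rod library lay above every retina library, and the deposited values of the genotypes overlapped in both fractions. Gnb1 (ENSMUSG00000029064), a beta subunit that is also used outside photoreceptors, was listed at 251921, 251917 and 257708 in Het rods, 248866, 230875 and 247809 in KO rods, 96192, 85823 and 80122 in Het retina, and 94447, 89691 and 77808 in KO retina. It was the member with the least spread in Het rods, and its deposited values in KO rods all lay a little below those in Het rods, with overlap after TMM scaling. Gngt1 (ENSMUSG00000029663), the rod gamma subunit that anchors the beta-gamma dimer to the membrane, was listed at 82774, 74931 and 79910 in Het rods, 61296, 56877 and 54560 in KO rods, 25508, 21073 and 28239 in Het retina, and 26023, 31019 and 17127 in KO retina. KO rod values of Gngt1 were all below Het rod values, whereas retina values of the genotypes overlapped and the lowest was in KO retina 3.

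Rod phosphodiesterase consists of catalytic alpha and beta subunits held inactive by gamma subunits. Pde6a (ENSMUSG00000024575), the alpha subunit, was listed at 124989, 110171 and 119140 in Het rods, 118534, 106943 and 128935 in KO rods, 45420, 36656 and 33048 in Het retina, and 40802, 38544 and 34461 in KO retina. Its genotypes overlapped in both fractions. Pde6b (ENSMUSG00000029491), the beta subunit, was listed at 118093, 110992 and 117020 in Het rods, 102257, 97843 and 107373 in KO rods, 43505, 37043 and 34983 in Het retina, and 39468, 39452 and 30802 in KO retina. All KO rod values of Pde6b were below all Het rod values. Pde6g (ENSMUSG00000025386), the inhibitory gamma subunit, was listed at 53120, 76343 and 69444 in Het rods, 97245, 113089 and 90311 in KO rods, 27787, 40281 and 18670 in Het retina, and 30122, 23324 and 35236 in KO retina. KO rods were all above Het rods for Pde6g, and Het retina 2 and KO retina 3 were the highest retina libraries.

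Gngt1 and Pde6g are the shortest members and lie at the opposite ends of the members' range of GC content, which matters for the genotype comparison in rods. Their coding sequences are shown for that reason, from the start codon to the stop codon, read from GENCODE M21 transcripts of GRCm38, with every G and C in capitals.
Gngt1: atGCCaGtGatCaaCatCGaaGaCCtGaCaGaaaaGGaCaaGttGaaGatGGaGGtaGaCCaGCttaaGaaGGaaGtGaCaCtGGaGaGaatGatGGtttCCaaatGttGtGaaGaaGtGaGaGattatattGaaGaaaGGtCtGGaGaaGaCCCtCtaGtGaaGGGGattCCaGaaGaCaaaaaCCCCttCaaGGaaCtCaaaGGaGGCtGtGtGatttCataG
Pde6g: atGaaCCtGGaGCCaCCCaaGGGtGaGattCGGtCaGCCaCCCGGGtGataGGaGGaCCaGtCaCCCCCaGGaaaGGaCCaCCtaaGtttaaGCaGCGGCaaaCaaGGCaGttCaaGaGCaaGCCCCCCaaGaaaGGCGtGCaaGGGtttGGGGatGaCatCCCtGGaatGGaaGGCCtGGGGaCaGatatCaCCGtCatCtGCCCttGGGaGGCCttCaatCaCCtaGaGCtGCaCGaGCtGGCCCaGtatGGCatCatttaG
The coding sequence of Gngt1 has 225 bases with 43.1% G or C, and that of Pde6g has 264 bases with 56.4%. Over the whole annotated transcript the contents were 35.84% for Gngt1 and 55.78% for Pde6g.

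The rod channel is built from Cnga1 and Cngb1 subunits. Cnga1 (ENSMUSG00000067220), which forms a conducting channel by itself, was listed at 55416, 46697 and 52588 in Het rods, 39816, 35991 and 41574 in KO rods, 17355, 11756 and 17424 in Het retina, and 14989, 18627 and 10452 in KO retina. KO rods were all below Het rods for Cnga1. Cngb1 (ENSMUSG00000031789), the modulatory subunit, was listed at 19825, 21452 and 21577 in Het rods, 29095, 32307 and 27392 in KO rods, 10951, 13552 and 7832 in Het retina, and 11213, 9818 and 12232 in KO retina. KO rods were all above Het rods for Cngb1, the opposite of its partner. The Cngb1 gene also encodes soluble glutamic-acid-rich proteins of the outer segment, and 1 value per gene cannot separate their transcripts from that of the channel subunit. Slc24a1 (ENSMUSG00000034452), the rod exchanger that trades sodium for calcium and potassium, was listed at 87188, 83752 and 92329 in Het rods, 85903, 79632 and 84997 in KO rods, 32372, 27094 and 27559 in Het retina, and 29685, 32110 and 23940 in KO retina. Its genotypes overlapped in both fractions.

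**Figure D1:**
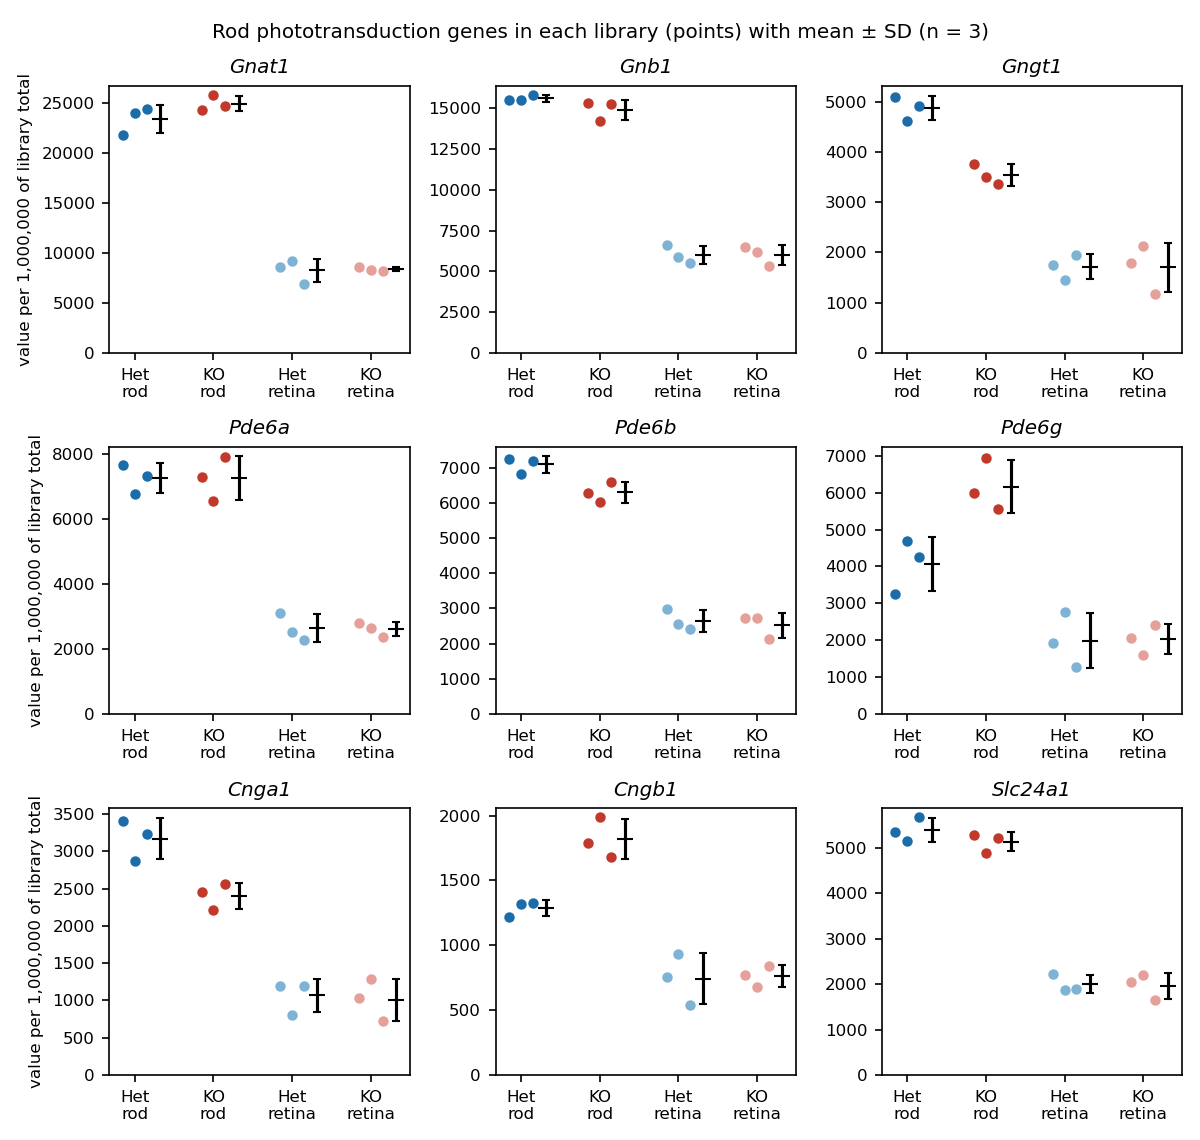
Each panel plots 1 gene, with points for the 3 libraries of each group per 1000000 of the library total, on an axis from 0, and the mean ± SD (n = 3) as a bar beside them. Rod libraries lie above retina libraries in all 9 panels. KO rods lie above Het rods for Pde6g and Cngb1, and below Het rods for Gngt1, Cnga1, Pde6b and, narrowly, Gnb1. After TMM scaling, not plotted, Gnb1 overlaps and KO rods lie above Het rods for Gnat1. With that scaling 48.4% of all genes tested are apart between KO and Het rods.

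Promoter sequence was looked at because the 9 genes were all higher in rods. The RefSeq promoter table for GRCm38.p6 held 6 of the 9 members. The 250 bases before the start were searched on both strands for TAATCC, the letters preferred by the photoreceptor homeodomain protein Crx. Of the 6 windows, those of Cnga1, Gngt1 and Cngb1 held a match, against 6.25% of all 32851 windows of that length. They are printed because they hold the match, each 5′ to 3′ on the strand of its gene, with matched letters in capitals.
Cnga1, chr5:72642753-72643002, minus strand: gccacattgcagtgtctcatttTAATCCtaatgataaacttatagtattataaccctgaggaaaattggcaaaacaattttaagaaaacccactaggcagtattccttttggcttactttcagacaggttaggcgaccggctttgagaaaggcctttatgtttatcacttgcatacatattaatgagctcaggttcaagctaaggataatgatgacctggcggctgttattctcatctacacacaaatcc
Gngt1, chr6:3993758-3994007, plus strand: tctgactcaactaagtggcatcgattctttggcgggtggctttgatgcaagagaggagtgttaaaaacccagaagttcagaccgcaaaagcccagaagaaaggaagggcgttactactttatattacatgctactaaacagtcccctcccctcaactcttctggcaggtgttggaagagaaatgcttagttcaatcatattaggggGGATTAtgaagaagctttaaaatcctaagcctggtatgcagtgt
Cngb1, chr8:95306586-95306835, minus strand: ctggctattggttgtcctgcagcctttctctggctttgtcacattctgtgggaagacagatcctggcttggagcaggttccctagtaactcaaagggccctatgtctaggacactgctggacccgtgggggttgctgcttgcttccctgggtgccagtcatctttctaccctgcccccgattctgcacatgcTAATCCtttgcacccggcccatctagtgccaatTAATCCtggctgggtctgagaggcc
Cnga1 had 1 match that began 228 bases before the start. Gngt1 had 1 match on the opposite strand, 44 bases before the start, and Cngb1 had 2 matches, at 58 and 25 bases. The windows of Gnb1, Pde6b and Slc24a1 did not hold these letters. A match describes the letters and was not tested as a binding site.

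Levels of different genes were compared per 1000000 of the library total and per kb of the longest annotated protein-coding transcript. Which transcripts were present was not tested, so the order depends on that choice of length. In Het rods Gnat1 was highest at 10080 ± 602 (SD, n = 3) and Cngb1 lowest at 208.2 ± 9.69. Gnb1 at 4966 ± 65.2, Pde6g at 4529 ± 815 and Gngt1 at 4116 ± 206 followed Gnat1, and each overlapped its neighbour in the order. Pde6b at 2534 ± 84.2 and Pde6a at 1583 ± 100.0 stood apart from each other. Cnga1 at 1157 ± 99.9 and Slc24a1 at 1035 ± 51.0 overlapped. The order differed in KO rods, where Pde6g at 6846 ± 797 was above all 3 values of Gnb1, at 4744 ± 198, and Slc24a1 at 985.1 ± 40.0 was above Cnga1 at 878.3 ± 64.1. In Het retina Gnat1 was highest at 3549 ± 506, with Pde6g at 2211 ± 830 overlapping it, and Cngb1 was lowest at 119.9 ± 31.8. In KO retina the highest and lowest were again Gnat1, at 3610 ± 100.0, and Cngb1, at 123.3 ± 13.5.

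The first comparison asked how rod ribosome-bound RNA differed from whole-retina RNA in control mice. All 9 members rose in Het rods over Het retina, by log2 fold changes from 1.24 for Cngb1 to 2.00 for Cnga1, with a median of 1.85. Of 16110 genes tested, 21.4% were called higher, and the median over all of them was -0.11. Calls needed both a limma adjusted p under 0.05 and a difference of more than 0.5 in either direction on the log2(scaled value + 2) scale. The transducin subunits rose together, with Gnat1 at 1.93 (SE 0.13), Gngt1 at 1.92 (SE 0.12) and Gnb1 at 1.79 (SE 0.10). The catalytic subunits Pde6a at 1.88 (SE 0.12) and Pde6b at 1.84 (SE 0.10) were close to each other, and Pde6g was at 1.50 (SE 0.27). The channel subunits were the extremes, with Cnga1 at 2.00 (SE 0.16) and Cngb1 at 1.24 (SE 0.19), and Slc24a1 was at 1.85 (SE 0.10). No rod library overlapped a retina library for any member. Fewer rods in a sample and less RNA per rod cannot be told apart in bulk RNA.

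KO rods against KO retina gave the same calls for 9 of 9 members, from 1.63 (SE 0.19) for Gngt1 to 2.15 (SE 0.17) for Pde6g, against 25.7% of 16121 genes called higher. The median was 1.87 over the members and -0.02 over all genes tested. Gnat1 was at 2.10, Pde6a at 2.01, Slc24a1 at 1.93, Pde6b at 1.87, Gnb1 at 1.85, Cnga1 at 1.82 and Cngb1 at 1.79. The 9 genes together made up 7.064% to 7.425% of the total of each rod library and 2.402% to 2.918% of each retina library.

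The cone counterpart of each member is encoded by a separate gene, and these 8 genes went the other way. Het rods were called lower than Het retina for 8 of 8, with a median of -1.09, against 5923 of all 16110 genes tested. Gnat2, the cone transducin alpha subunit, was at -1.14 (SE 0.19), Gnb3, the cone beta subunit, at -0.91 (SE 0.30), and Gngt2, the cone gamma subunit, at -1.20 (SE 0.24). The cone phosphodiesterase subunits Pde6c and Pde6h were at -1.03 (SE 0.16) and -1.36 (SE 0.27). The cone channel subunits Cnga3 and Cngb3 were at -0.92 (SE 0.19) and -0.98 (SE 0.20), and the exchanger Slc24a2, which neurons other than cones also express, was at -2.94 (SE 0.16). In KO mice 7 of the 8 were called lower, against 5889 of all 16121 genes tested, and Gnb3 was at -0.36 (SE 0.19; limma adjusted p = 0.118).

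**Figure D2:**
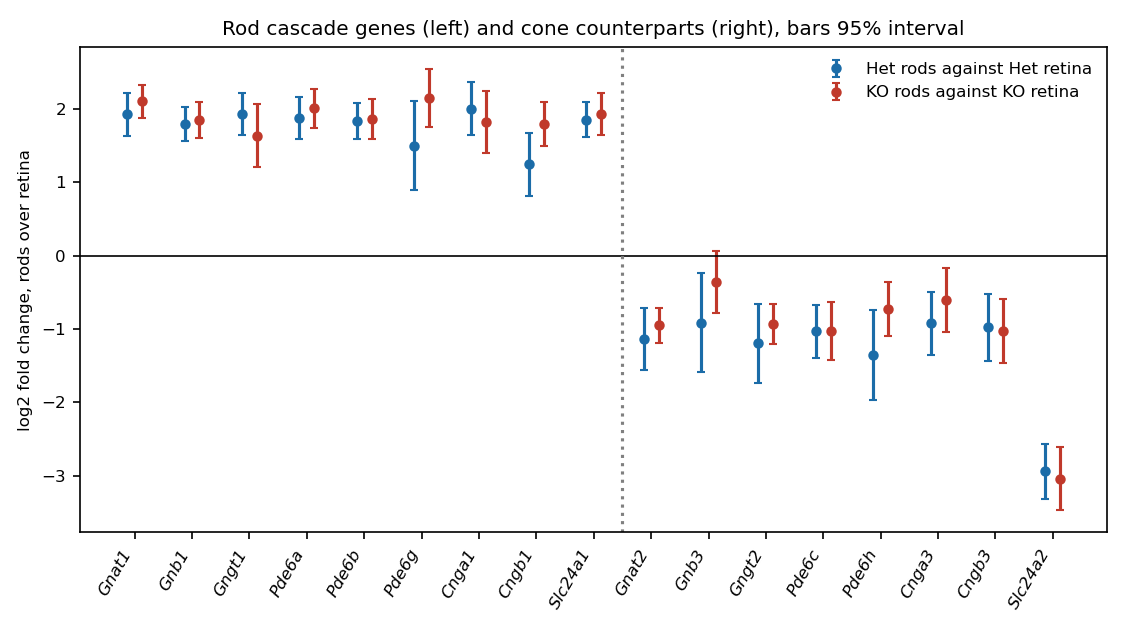
The log2 fold change of rods over retina is plotted for the 9 rod genes and the 8 cone counterparts, separately for Het and KO mice, with bars for the 95% confidence interval of the limma fit. Rod genes lie between 1.24 and 2.15, cone genes between -0.36 and -3.04, and the interval of Gnb3 in KO mice includes 0.

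Of the 12 genes listed for shutoff and calcium feedback, 12 rose in Het rods (median 1.46) and 12 in KO rods (median 1.72). All of these were called, against 21.4% of all genes tested called higher in Het rods and 25.7% in KO rods. Sag, encoding arrestin, was at 1.78 in Het mice. All 6 genes of the list named assembly and trafficking, which includes the disc-rim genes Prph2 and Rom1, rose too. Their medians were 1.49 in Het and 1.94 in KO mice. Among 10356 genes outside the members and these lists, the 5 whose log2 levels followed the mean of the 9 members most closely over the 12 libraries were Nrl (Pearson r = 0.9993), Nxnl1 (0.9991), Rdh12 (0.9982), Cdr2 (0.9980) and Laptm4b (0.9979). Those values are a description, and the rod and retina fractions form separate clusters that carry most of each correlation.

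The summed markers of cones, bipolar, Müller, amacrine, ganglion, horizontal, microglial and vascular cells were lower in every rod library than in every retina library of the same genotype. Of the 6 bipolar markers 5 were called lower in each genotype, against 5923 of all 16110 genes tested in Het and 5889 of 16121 in KO mice. The other, Prkca, was not called, at 0.01 in Het and -0.06 in KO mice. The sums of the 6 lens genes overlapped between fractions in Het mice (0.3074 to 278.5 in rods, 7.778 to 15800 in retina, per 1000000 of the library total), and those of the 4 RPE markers overlapped in KO mice (1.476 to 14.57 and 14.32 to 321.4). The 7 cone markers summed to 260.1 to 427.7 per 1000000 of the library total in Het rods and 862 to 1039 in Het retina, with none of them at 0 throughout a group. The 6 Müller glia markers summed to 82.39 to 124 per 1000000 in Het rods and 3145 to 4104 in Het retina. The 7 rod markers that are not members, among them Nrl, Nr2e3, Sag, Rom1, Prph2 and Rp1, all rose in both genotypes, as the label rod would have it. Over all genes tested, 21.4% in Het and 25.7% in KO mice were called higher in rods. Scaling by library total in place of TMM moved the median of all genes by -0.41 in Het and -0.53 in KO mice and lowered the share of calls that were higher from 36.8% to 13.5% and from 41.3% to 12.5%. All 9 members remained higher in both genotypes.

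The second question was whether the members differed between KO and Het rods. Pde6g and Cngb1 rose in KO rods, by 0.69 (SE 0.16; limma adjusted p = 0.0182) and 0.58 (SE 0.09; limma adjusted p = 0.00378), and no member was called lower. Of 10076 genes tested after genes lower in Het rods than Het retina were removed, 14.5% were called, 12.1% higher and 2.32% lower in KO. Gngt1 was at -0.38 (SE 0.08; limma adjusted p = 0.00706) and Cnga1 at -0.31 (SE 0.08; limma adjusted p = 0.0154), which passed the p threshold and not the fold threshold. The other 5 missed the p threshold, and the median over the members was 0.02 against -0.03 over all genes tested. Gnat1 was at 0.17 (95% interval 0.01 to 0.34), Pde6a at 0.08 (-0.09 to 0.25), Gnb1 at 0.02 (-0.12 to 0.16), Slc24a1 at 0.01 (-0.14 to 0.16) and Pde6b at -0.09 (-0.23 to 0.06). After TMM scaling the groups did not overlap for 6 members, with Gnat1, Pde6g and Cngb1 higher and Gngt1, Pde6b and Cnga1 lower, against 48.4% of all genes tested. Without KO rod replicate 2 neither call was made: Pde6g was at 0.57 (limma adjusted p = 0.0550) and Cngb1 at 0.49 (limma adjusted p = 0.00484), below the fold threshold. The 7 cone markers summed to 260.1 to 427.7 per 1000000 in Het rods and 359.1 to 388.5 in KO rods. The 6 amacrine markers summed to 31.85 to 35.17 in Het rods and 38.06 to 49.19 in KO rods, without overlap, while the 6 Müller glia markers summed to 82.39 to 124 and 83 to 125.4. In the fit that kept genes lower in rods, 1 of 5 amacrine markers tested, Slc6a9, was called higher in KO rods at 0.72 (limma adjusted p = 0.00531). Among 6 Müller glia markers 1, Apoe, was called higher at 1.04 (limma adjusted p = 0.0126). The other 4 amacrine and 5 Müller glia markers were not called, and the list medians were -0.03 and 0.23. Of all 13055 genes in that fit, 13.1% were called in either direction. The 6 lens genes had a median of 2.53 and 0 calls, with 6 of 6 tested and overlapping sums of 0.3074 to 278.5 in Het and 111.7 to 788.7 in KO rods. The part of these markers in the result was not tested.

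The differences between KO and Het rods ran with the GC content of the transcripts. Gngt1, at 35.84% GC, and Cnga1, at 42.61%, had the lowest content and the most negative differences. Pde6g, at 55.78%, had the highest content and the largest positive difference, and Cngb1 had 53.85%. Gnat1 had nearly the content of Cngb1, 53.95%, and a smaller difference. The members between them, Gnb1 at 48.11%, Pde6a at 49.3%, Pde6b at 49.66% and Slc24a1 at 50.01%, lay within 0.09 of 0 on the log2 scale. Spearman's rank correlation between GC content and the difference was 0.85 over the 9 genes, which share the same 6 libraries.

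The same trend ran through all genes of the rod libraries. In each library the deviation of every gene from its mean over the 6 was taken. The median deviation of genes at or below 41.5% GC, the 10th percentile, was subtracted from that at or above 57.32%, the 90th. The difference was -0.82, -0.24 and -0.43 log2 units in Het rods 1 to 3 and 0.42, 0.79 and 0.29 in KO rods 1 to 3. KO and Het libraries did not overlap in this measure, so the genotype and the GC trend cannot be told apart from the rod libraries. With a smooth curve against GC content removed from each library, 0 members and 3.14% of genes were called by limma. Cngb1 was then at 0.32 (limma adjusted p = 0.00798) and Pde6g at 0.26 (limma adjusted p = 0.0467), which passed the p threshold and not the fold threshold. Gngt1 was at -0.05, Cnga1 at -0.07, Pde6b at -0.07, Gnat1 at -0.09, Gnb1 at 0.10, Pde6a at 0.12 and Slc24a1 at 0.01. The split of all calls moved as well, from 84% higher to 50.9% higher, and to 65% under library-size scaling.

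**Figure D3:**
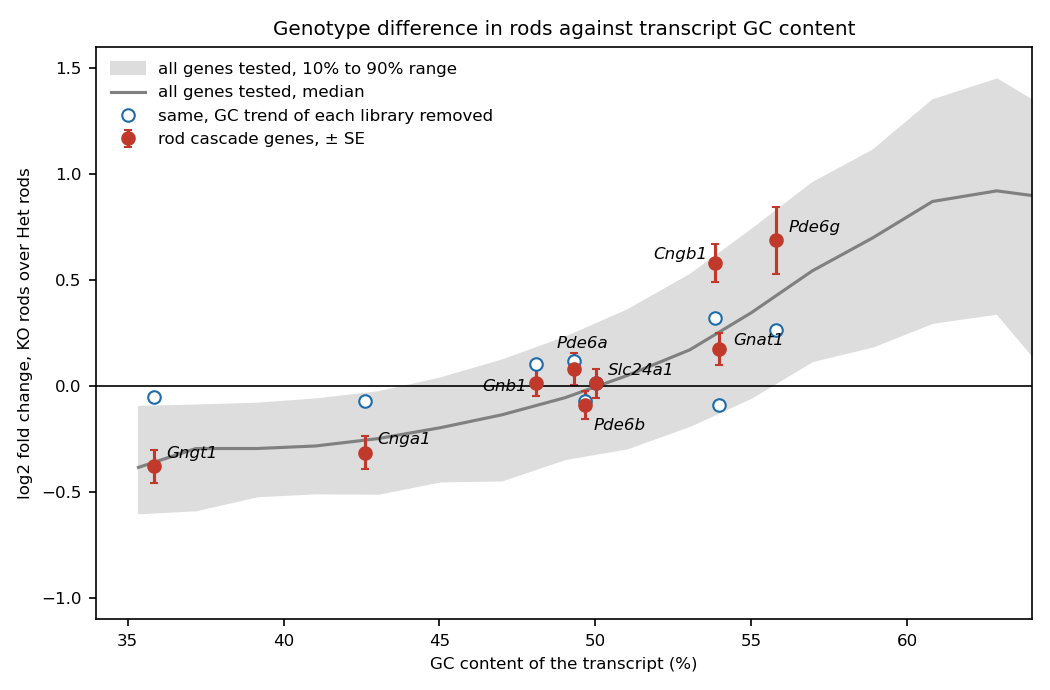
The log2 fold change of KO over Het rods (filled points, ± SE) is plotted against transcript GC content for the 9 members, with the median and the 10% to 90% range of all genes tested behind them and, as open circles, the values after removal of each library's GC trend. Filled points climb from -0.38 for Gngt1 to 0.69 for Pde6g, and the open circles run from -0.09 to 0.32.

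Partner subunits were then compared as ratios within each library, which do not depend on the scaling between libraries. For Cngb1 to Cnga1 the ratio of deposited values was 0.358, 0.459 and 0.410 in Het rods, against 0.731, 0.898 and 0.659 in KO rods. KO rods were all higher, 1.86-fold on average (log2 difference 0.89; exact two-sided permutation p = 0.1, adjusted p = 0.333). In retina this ratio was 0.631, 1.15 and 0.450 in Het and 0.748, 0.527 and 1.17 in KO libraries, so its values in both genotypes spanned nearly the whole range. With 3 libraries against 3 the smallest possible p is 0.1, and the adjustment covers the 20 ratios and comparisons made, so none could pass 0.05.

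The Pde6g to Pde6a ratio was 0.425, 0.693 and 0.583 in Het rods, against 0.820, 1.06 and 0.700 in KO rods. KO values were all higher, 1.52-fold on average (exact permutation p = 0.1, adjusted p = 0.333), although the highest Het and the lowest KO value were close. The Gngt1 to Gnat1 ratio was 0.233, 0.192 and 0.201 in Het rods, against 0.155, 0.136 and 0.136 in KO rods. KO rods were all lower, at 0.683 of Het rods on average (exact permutation p = 0.1, adjusted p = 0.333). The Gnb1 to Gnat1 ratio was 0.709, 0.644 and 0.648 in Het rods, against 0.629, 0.550 and 0.616 in KO rods, again lower in all KO libraries (0.897-fold; exact permutation p = 0.1, adjusted p = 0.333).

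The catalytic subunits Pde6b and Pde6a have nearly the same GC content. Their ratio was 0.945, 1.01 and 0.982 in Het rods, against 0.863, 0.915 and 0.833 in KO rods. KO rods were all lower, at 0.889 of Het rods (log2 difference -0.17; exact permutation p = 0.1, adjusted p = 0.333), and removal of the GC trend left the log2 difference at -0.19 with the groups still apart. Cngb1 to Cnga1 also stayed apart after that removal, at 0.39, while Pde6g to Pde6a at 0.14 and Gngt1 to Gnat1 at 0.04 overlapped. Gnb1 to Gnat1 turned to 0.19, with all KO rod libraries then above all Het rod libraries, the reverse of the order before removal. The GC correction of ratios was chosen after seeing the data, and the cause of the ratio differences was not tested. In retina Pde6b to Pde6a was 0.958, 1.01 and 1.06 in Het and 0.967, 1.02 and 0.894 in KO libraries, with overlap between genotypes (exact permutation p = 0.5, adjusted p = 0.769).

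**Figure D4:**
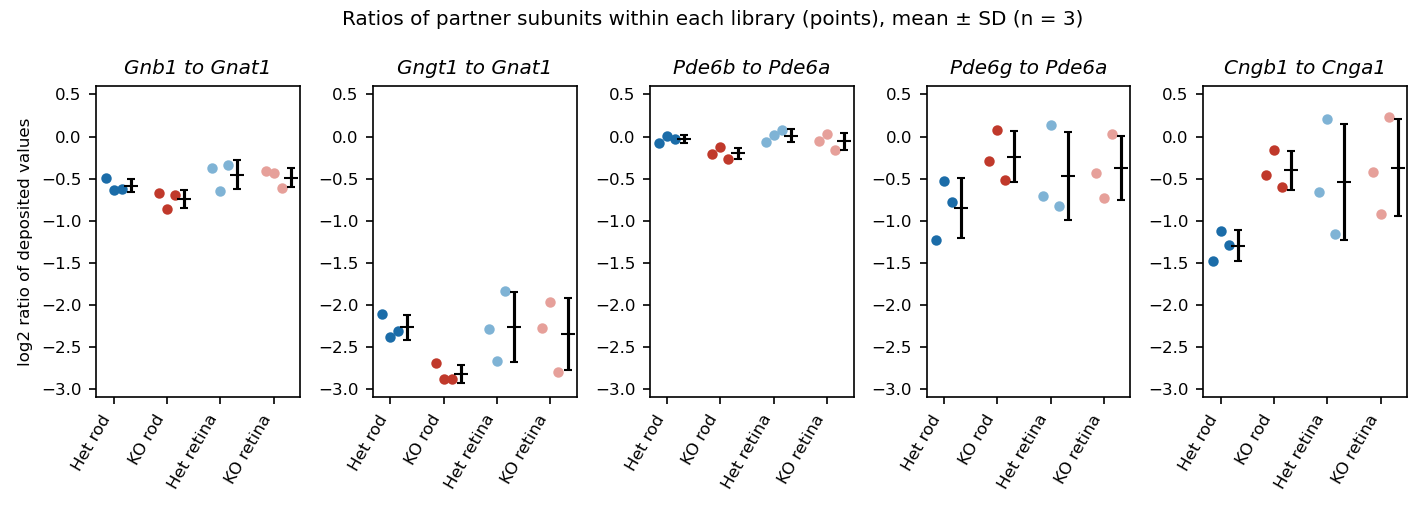
Log2 ratios of deposited values are plotted for 5 pairs of partner subunits, with a point for each library and the mean ± SD (n = 3) beside each group. KO and Het rods are apart in each of the 5 panels, by 0.17 for Pde6b to Pde6a and 0.89 for Cngb1 to Cnga1 in size, and the retina groups overlap in all 5. Among single genes, 48.4% of those tested were apart between KO and Het rods after TMM scaling. After removal of the GC trend, not plotted, Pde6g to Pde6a and Gngt1 to Gnat1 overlapped in rods, and Gnb1 to Gnat1 was in the reverse order.

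No member passed the test between whole retina of KO and Het mice. The log2 differences ran from -0.09 (95% interval -0.65 to 0.47) for Cnga1 to 0.09 (-0.59 to 0.77) for Pde6g, and 0 of 9 passed the limma test. Of 16863 genes, 0 (0%) were called, 140 had an unadjusted p below 0.05, and none of those was a member. Groups did not overlap for 0 of 9 members and for 3.52% of all genes. The intervals of Pde6g, Cnga1 and Gngt1 (-0.57 to 0.49) included the differences seen in rods, and the upper limit for Cngb1, 0.57, lay just below its rod difference of 0.58. Het retina 2 and KO retina 3 had the largest positive GC trends of the retina libraries. The difference between high-GC and low-GC genes, measured as in rods, was 0.86 and 0.90 log2 units. These libraries also had the highest Pde6g and Cngb1 and the lowest Gngt1 and Cnga1 values of the retina libraries. KO retina 3 had 4.92% of its total in the 6 lens genes, against at most 1.58% in the other 11 libraries. The part of these measures in the retina values was not tested.

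Whether the genotype difference itself differed between rods and retina was examined with an interaction term fitted to the 12 libraries together. None of the 9 members passed, and 0 (0%) of 17192 genes were called by limma, with 604 genes and 0 members at an unadjusted p below 0.05. The estimates were -0.44 (95% interval -0.97 to 0.09) for Gngt1, 0.50 (-0.24 to 1.24) for Pde6g, 0.40 (-0.11 to 0.90) for Cngb1 and -0.33 (-0.92 to 0.26) for Cnga1. The other 5 members lay between -0.12 and 0.03.

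The other genes of the pathway were read beside the members in KO and Het rods. Of all 10076 genes tested there, 12.1% were called higher and 2.32% lower in KO. With GC correction 3.14% were called in either direction, against 14.5% without it. The part of GC content in the values below was not tested. Of the 12 shutoff and feedback genes 1 was called higher, Guca1a, which encodes a guanylate cyclase activator, at 0.63 (SE 0.19; limma adjusted p = 0.0493), and 0 were called lower. With genes lower in rods kept in the fit Guca1a was not called (limma adjusted p = 0.0555). Pdc, encoding the transducin-binding phosducin, was at -0.36 (SE 0.07; limma adjusted p = 0.00708), which passed the p threshold and not the fold threshold, and Sag was at 0.44 (limma adjusted p = 0.374). Of the 6 genes listed for assembly and trafficking 2 were called higher. They were the disc-rim genes Prph2 at 0.59 (SE 0.10; limma adjusted p = 0.00465) and Rom1 at 0.53 (SE 0.13; limma adjusted p = 0.0178). The 8 cone counterparts were removed before this fit as genes lower in rods, and in the fit that kept them 0 of 8 were called by limma, with 1 of 8, Gnb3, at an unadjusted p below 0.05.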

How the data were processed

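Per the labels, polyA RNA was converted to cDNA with SMART-Seq V4, and the submitters' processing notes name CASAVA 1.8.2, HISAT2, DESeq2, edgeR and the GRCm39 build, without their roles. The authors deposited 1 table of whole numbers per gene and library, treated here as a signal proportional to reads: the totals of a fraction are nearly equal, so each library was evidently multiplied by a factor and rounded before deposit, and no count test was used. The factor, and so the reads, was estimated from gaps in the low integers for 11 of 12 libraries. Counting strand is not given in the sources used here. Gnb1, Pde6a and Cnga1 overlap pseudogenes, listed at no more than 2, 450 and 76 in any library.

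Values were scaled by TMM (trim 30%, written for this work), raised by 2 and log2 transformed, and limma 3.58.1 (trend, robust) in R 4.3.3 was fitted on all genes with a value of about 10 in at least 3 libraries and a sum of at least 15, with Benjamini-Hochberg adjustment. Only the groups compared entered a fit, except the interaction. The 5923 genes lower in Het rods than Het retina were removed before KO and Het rods were compared, after the study's methods. The named genes are all members, the cone counterparts, Ptpn11, at most 4 genes of each other list (the highest and those called), of which 1 is not reported here, and the 5 genes most like the members with a mean of at least 100. Pdc, Gnb3, Slc6a9 and Apoe in the rod genotype comparison, and Prkca in the fraction comparisons, were named after their values were seen. Members and lists were chosen with earlier results of these data known. Methods were tested on simulated data.

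GC content and length come from GENCODE M21 (GRCm38) by Ensembl identifier, matched for all 9 members. The longest protein-coding transcript of each gene was used, or the longest transcript where none was protein-coding. The GC trend of each library was a lowess curve (span 0.3), over 99.1% of genes in the rod genotype comparison. Replicate numbers come from the titles. The deviations of same-numbered Het rod and Het retina libraries correlated at 0.468, 0.413 and 0.251 over genes. Those of differently numbered libraries correlated at -0.19 on average. Deviations were taken from the mean of each group, which ties that average to the same-numbered values with opposite sign. It therefore adds no separate information. The numbers may pair these libraries, which was not tested further. The reported values come from the fit without the block, and the block was an alternative that changed no member's call. For same-numbered KO rod and KO retina libraries the correlations were 0.334, -0.014 and 0.182. Alternatives were RLE or library-size scaling, a pseudocount of 0.5, no filter, the replicate block, GC correction, and each library left out. The GC correction of ratios was chosen after seeing the data. Figures were drawn with matplotlib 3.10.9.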

Additional observations from a re-analysis of the deposited data

How the results depend on the processing

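All 9 members stayed higher in rods in both genotypes under every alternative, and 0 were called in retina or in the interaction. In KO against Het rods, 2 calls became 1 under library-size scaling (Cngb1 at 0.50, below the threshold), 1 without the filter (Pde6g, limma adjusted p = 0.0999), 0 with GC correction, 0 with GC correction and the replicate block, and 0 to 2 with single libraries left out. The replicate block alone kept 2 members and changed no other call: 9 and 9 members in the fraction comparisons, 2 in rods, 0 in retina and 0 in the interaction. Same-numbered KO and Het libraries did not deviate together in rods (0.183, 0.034 and 0.026) or retina (0.404, -0.585 and -0.14), so there the numbers are only names. The block joined these libraries in the genotype and interaction fits. No interaction fit paired rod and retina libraries within each genotype alone, so its result under such pairing is unknown. RLE scaling and a pseudocount of 0.5 moved no count of members. GC correction moved the median of all genes by 0.39 in Het and 0.41 in KO mice between the fractions, where 57.4% and 58.1% of calls were then higher in rods.

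Signs turned for the values below, none of them called, and the cause was not tested. The ratios could not pass at 3 against 3. Library-size scaling gave -0.067 for Gnb1, -0.002 for Pde6a and -0.071 for Slc24a1 in KO against Het rods. GC correction, with or without the block, gave -0.091 for Gnat1 in rods and 0.068 for Gngt1 in retina. GC correction of ratios gave 0.19 (KO rods, groups apart before and after in opposite order) and 0.006 (KO retina, both against Het) for Gnb1 to Gnat1, and for Gngt1 to Gnat1 0.27 and 0.29 (rods against retina in Het and KO), 0.04 (KO rods) and 0.049 (KO retina). With 1 library left out, the ranges crossing 0 were -0.028 to 0.041 for Slc24a1 in rods, and in retina -0.19 to 0.18 for Gngt1, -0.18 to 0.365 for Pde6g, -0.27 to 0.11 for Cnga1 and -0.12 to 0.26 for Cngb1. The Cnga1 interaction ran from -0.46 to 0.002. Among ratios, KO against Het retina ran from -0.133 to 0.028 for Gnb1 to Gnat1, -0.28 to 0.15 for Gngt1 to Gnat1, -0.12 to 0.39 for Pde6g to Pde6a and -0.14 to 0.54 for Cngb1 to Cnga1. Rods against retina ran from -0.20 to 0.21 for Gngt1 to Gnat1 in Het mice, and in KO mice from -0.037 to 0.342 for Pde6g to Pde6a and -0.31 to 0.27 for Cngb1 to Cnga1. Counting error was at most 1.14% in the 11 libraries with a read estimate, and is unknown for Het retina 3.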
